A study of Mus musculus with 8 samples.

Results

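ATP-binding cassette (ABC) transporters were compared between 2 sorted fractions of mouse leukaemic spleen. They were taken as the genes whose single gene symbol on the array platform began with Abca to Abcg followed by a number. Such symbols marked 92 probe sets (groups of short probes read as 1 value) and 45 of the 18193 named genes tested. Where a gene had several probe sets, the one with the highest 8-array mean stood for it, and the letter after Abc gave its subfamily. Subfamily A had 14 genes, B had 8, C had 10, D had 3, E had 1, F had 3 and G had 6.

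Most ABC proteins bind and hydrolyse ATP to move a substrate across a membrane. Subfamilies A and G carry mainly lipids and sterols, B holds the P-glycoprotein drug pumps together with transporters of mitochondria and lysosomes, C carries conjugated organic anions and cyclic nucleotides, and D carries fatty acids into peroxisomes. Members of E and F have the ATP-binding domains but no membrane-spanning part, and act on ribosomes and in translation. In blood, Abcg2 and P-glycoprotein are known from the dye efflux of stem and progenitor cells, and Abca1 and Abcg1 from cholesterol export by macrophages.

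All arrays came from mice with acute myeloid leukaemia carrying MLL-AF10, a fusion of AF10 to MLL, the gene of a histone methyltransferase. According to the labels, c-kit-positive bone marrow stem and progenitor cells were transduced with retrovirus, immortalised, and transplanted into sub-lethally irradiated syngeneic recipients, written there as CD57BL/6. Spleen cells of 4 mice, called _948, _951, _952 and _953 after their array titles, were sorted on surface c-kit, also called CD117. Each mouse gave a c-kit-high array (CD117pos) and an array of cells with little or no c-kit (CD117neg), so both groups share the fusion gene, the transplantation and the irradiation. The sources used here give neither the age of the mice nor whether the 4 leukaemias arose from separate transductions.

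The deposited values were linear probe-set intensities, and array medians lay between 27.5 and 32.8. Kit, the gene of the sorted receptor, had a mean intensity of 28.6 ± 9.73 (SD, n = 4) in CD117neg and 751 ± 127 in CD117pos. CD117neg arrays correlated with each other at 0.978 to 0.988 (log2 values), and the CD117pos arrays of mice _948, _952 and _953 at 0.985 to 0.987. The CD117pos array of mouse _951 stood apart, with correlations of 0.928 to 0.930 with those 3. Of 7 measured monocyte and macrophage markers 6 were lower in CD117pos, and their summed intensity was 22610 to 28230 in CD117neg, 3984 to 7048 in 3 CD117pos arrays and 2023 in that of mouse _951. Of 8 late neutrophil markers 7 were lower, with sums of 56410 to 62620, 24510 to 31140 and, in CD117pos of _951, 13610. Of 8 general myeloid markers 6 were lower and 1, the primary granule gene Mpo, was higher. Without mouse _948, 4 late neutrophil and 2 general myeloid markers were lower, and without _953 4 of the former. None of the measured B-cell (6), T-cell (8), erythroid (6) or megakaryocyte (4) markers passed the test. The part of these cell types in the ABC differences was not tested, and in such bulk samples fewer cells of a type and less RNA per cell cannot be told apart.

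Differences are given as CD117pos minus CD117neg on the scale log2(intensity + 16), with the standard error, and were tested with limma with the mouse as a block. The Benjamini-Hochberg adjustment ran over all 18193 genes, and an adjusted p under 0.05 is called past the threshold. Changes of dim genes come out too small on this scale. By this test 2 ABC genes were higher in CD117pos, Abcb10 and Abcb9, and 8 were lower, Abca9, Abcg3, Abca7, Abca3, Abcc5, Abcc3, Abca13 and Abcg1. The other 35 did not pass. Of all genes tested, 8.27% were higher and 13.8% were lower, 22.1% in either direction. The 10 of 45 ABC genes (22.2%) were therefore close to the background. The median difference of the 45 genes was 0.00, beside -0.01 for all genes. All 4 CD117pos arrays lay above all 4 CD117neg arrays for 3 ABC genes, beside 10.4% of all genes, and below them for 7, beside 17.3%. Another scaling of the arrays moved the split of calls: quantile normalisation gave 3 higher and 4 lower ABC genes (2424 and 1941 of all genes), and centring on array medians gave 3 and 5 (1944 and 2085 of all genes).

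**Figure D1:**
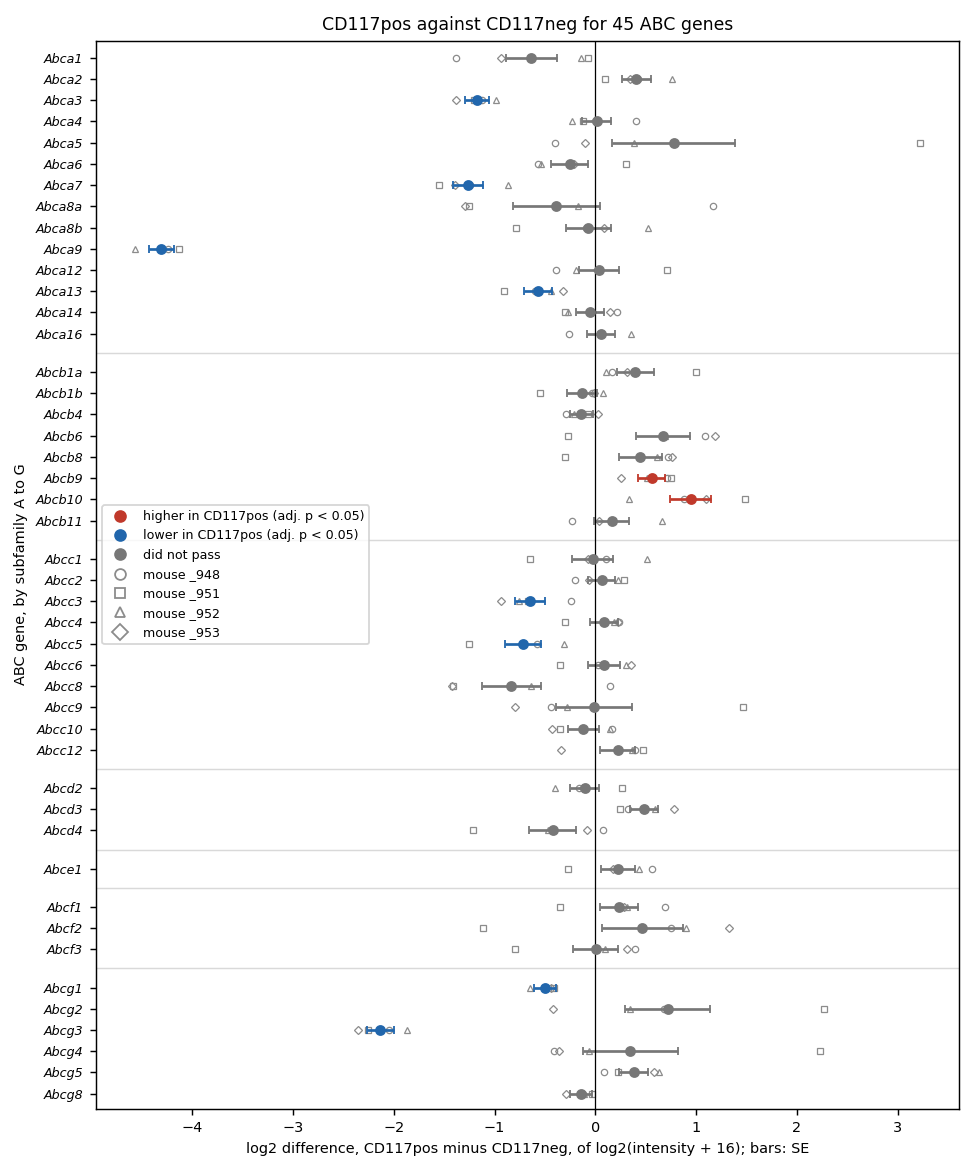
Difference between fractions for each of the 45 ABC genes, grouped by subfamily; filled points are the fitted log2 difference with its SE, coloured where limma's adjusted p was under 0.05, and open symbols are the 4 mice. Abca9 at -4.31 and Abcg3 at -2.13 lie far to the left, and the open squares of mouse _951 lie far to the right for Abca5, Abcg2 and Abcg4.

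The bases around the annotated start are shown for Abca9 and Abcg3, which had the largest falls, and for Abcb10, which had the larger of the rises. They run from 250 bases before to 50 bases after the start, 5′ to 3′ on the gene's strand, and come from RefSeq on build GRCm38.p6. Abca9 lies on the minus strand at chr11:110168104-110168403, Abcg3 on the minus strand at chr5:104982668-104982967, and Abcb10 on the minus strand at chr8:123983073-123983372. Capitals mark matches, on either strand, to the motifs named after the sequences.
Abca9: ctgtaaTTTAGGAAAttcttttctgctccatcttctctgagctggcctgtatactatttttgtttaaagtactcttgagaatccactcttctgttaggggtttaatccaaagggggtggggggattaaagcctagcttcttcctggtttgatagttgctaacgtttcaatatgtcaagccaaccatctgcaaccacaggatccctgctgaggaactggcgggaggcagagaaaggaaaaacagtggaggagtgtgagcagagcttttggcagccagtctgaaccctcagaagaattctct
Abcg3: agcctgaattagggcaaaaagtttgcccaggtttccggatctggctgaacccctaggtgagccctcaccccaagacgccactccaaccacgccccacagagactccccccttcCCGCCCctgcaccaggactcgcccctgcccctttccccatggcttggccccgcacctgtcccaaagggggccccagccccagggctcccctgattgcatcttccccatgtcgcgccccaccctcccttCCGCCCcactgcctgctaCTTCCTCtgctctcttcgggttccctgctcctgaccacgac
Abcb10: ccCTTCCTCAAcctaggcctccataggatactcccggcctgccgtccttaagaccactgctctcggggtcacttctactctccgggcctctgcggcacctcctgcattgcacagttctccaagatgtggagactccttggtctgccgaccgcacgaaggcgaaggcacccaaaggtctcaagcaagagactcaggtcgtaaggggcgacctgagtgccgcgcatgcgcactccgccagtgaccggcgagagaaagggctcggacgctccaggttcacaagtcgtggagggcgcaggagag
In Abca9 the capitals hold 2 overlapping matches to TTNNGNAA, a loose form of the site of C/EBP factors. The capitals in Abcg3 mark 2 GC boxes (GGGCGG) and, downstream, 1 GAGGAAG, the core bound by PU.1, all read on the other strand. Those in Abcb10 hold a GAGGAAG and a TTNNGNAA that overlap each other, both read on the other strand.

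Promoters were matched for 35 of the 45 ABC genes, with 42 promoter entries. GAGGAAG occurred in 19% of these 42, beside 13.6% of 32851 promoters of the same length, and TTNNGNAA in 45.2%, beside 40.7%. GGGCGG occurred in 50% beside 35.7%, the E-box CACGTG in 11.9% beside 7.15%, and AGGTCA, a core of many nuclear receptor sites, in 16.7% beside 16.3%. TGANTCA, an AP-1 site, had 0 matches in the ABC promoters and a match in 7.81% of all. The Abca9 promoter had a GC content of 45.3% and 2 CpG sites, below the medians of 58.8% and 16.5 over ABC promoters and of 52.7% and 7 over all promoters. That of Abcg3 had 65.3% and 11 CpG sites, and that of Abcb10 62.0% and 21. A match is a description of these letters and does not show that a factor binds.

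Subfamily A held the largest fall. 4 of its 14 genes were lower in CD117pos, Abca9, Abca7, Abca3 and Abca13, and 0 were higher, with a median difference of -0.16. Abca9 belongs to a group of related A transporters whose substrates are little known. Its intensity was 731, 347, 996 and 803 in the CD117neg arrays of mice _948, _951, _952 and _953, and 23.6, 4.67, 26.7 and 25.7 in their CD117pos arrays. Every CD117neg value was above every CD117pos value, and all 4 CD117pos values were below the median of their array. The means were 719 ± 272 and 20.2 ± 10.4, a difference of -4.31 ± 0.12, or 19.8-fold lower on this scale (limma adjusted p = 0.000152). The size depends on the pseudocount, at -5.23 with 1 and -3.15 with 64. A second, dimmer probe set of Abca9 had means of 29.1 ± 17.3 and 8.91 ± 0.932 and differed by -0.78 ± 0.21, short of the threshold over all probe sets (adjusted p = 0.0536). The mean over both probe sets differed by -2.54.

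Abca9 lies on chromosome 11 in a row of 5 A genes with 0 other coding genes between them, in the order Abca8b, Abca8a, Abca9, Abca6 and Abca5. Its 4 neighbours did not pass the test. Abca8b and Abca6 were below the array median on all 8 arrays, with differences of -0.07 ± 0.22 and -0.26 ± 0.18. Abca8a varied between arrays, from 11.6 to 61.2 in CD117neg and from 6.64 to 45.8 in CD117pos, and differed by -0.39 ± 0.43. Abca5, a transporter of lysosomes, was 30.7 to 55.9 in CD117neg and 37.4 to 44.7 in 3 CD117pos arrays, but 457 in the CD117pos array of mouse _951.

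Abca7 encodes a phospholipid transporter that has been linked to phagocytosis. Its intensity was 2441, 2464, 2142 and 2275 in CD117neg and 1023, 832, 1164 and 854 in CD117pos. Values within each fraction lay close together and far from the other fraction. The means were 2331 ± 151 and 968 ± 156, a difference of -1.26 ± 0.15, 2.40-fold lower (limma adjusted p = 0.00436).

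Abca3 carries phospholipids into storage organelles and is best known from lung surfactant. It read 775, 529, 677 and 852 in CD117neg and 348, 221, 335 and 318 in CD117pos. The fractions did not overlap, and mouse _951 had the lowest value in both. The means were 708 ± 139 and 305 ± 57.3, a difference of -1.17 ± 0.12, 2.25-fold lower (limma adjusted p = 0.00304). Its other 2 probe sets, both dimmer, were also lower, by -1.14 ± 0.13 and -0.67 ± 0.12.

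Abca13 is a very large A transporter of little-known function. Its values were 1645, 2256, 1721 and 1543 in CD117neg and 1082, 1194, 1266 and 1234 in CD117pos. The fractions did not overlap, and the highest value, in CD117neg of mouse _951, stood above the other 7. The means were 1791 ± 318 and 1194 ± 80.2, a difference of -0.57 ± 0.14 (limma adjusted p = 0.0378). With 3 mice the adjusted p for Abca13 was 0.146 without mouse _948, 0.112 without _952 and 0.0826 without _953. It was 0.111 after quantile normalisation, 0.0753 after median centring, 0.0824 with a pseudocount of 1 and 0.0704 for the mean of its probe sets. Its second probe set differed by -0.18 ± 0.12 and did not pass.

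The other 6 genes of subfamily A did not pass either. Abca1, the cholesterol exporter of macrophages, had means of 50.5 ± 22.1 and 25.3 ± 5.53 and differed by -0.64 ± 0.25 (limma adjusted p = 0.140). Its CD117neg values were 77.0, 35.4, 29.4 and 60.2, and its CD117pos values of 19.5, 32.8, 25.1 and 23.8 overlapped them. Abca2, a lysosomal lipid transporter, had means of 64.9 ± 10.5 and 91.3 ± 14.8 and differed by 0.41 ± 0.14, with CD117pos above CD117neg in all 4 mice (limma adjusted p = 0.105). Abca4 of the retina, Abca12 of the skin, Abca14 and Abca16 were below the array median on all 8 arrays, and their differences lay between -0.05 and 0.05.

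Subfamily B held both rises, and each passed only by the probe set that stood for the gene. 2 of its 8 genes were higher and 0 were lower, with a median difference of 0.42. Abcb10 sits in the inner membrane of mitochondria and is needed for haem synthesis in red cell precursors. Its intensity was 125, 112, 112 and 112 in CD117neg and 243, 341, 145 and 258 in CD117pos. The CD117neg arrays were nearly equal, all CD117pos arrays were above them, and mouse _951 was highest and _952 lowest among these. The means were 115 ± 6.66 and 247 ± 80.3, a difference of 0.95 ± 0.20, 1.93-fold higher (limma adjusted p = 0.0254). The adjusted p for Abcb10 was 0.0999 without mouse _948, 0.114 without _953 and 0.0506 with a pseudocount of 1. Its other probe sets differed by 0.38 ± 0.13 and 0.25 ± 0.16 and did not pass.

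Abcb9 carries peptides into lysosomes. It read 14.17, 13.08, 11.97 and 12.83 in CD117neg, all below the array median, and 33.5, 33.0, 23.8 and 18.3 in CD117pos. The fractions did not overlap, but 2 of the 4 CD117pos values were also below the array median. The means were 13.0 ± 0.905 and 27.2 ± 7.39, a difference of 0.56 ± 0.13 (limma adjusted p = 0.0346). The adjusted p for Abcb9 was 0.149 without mouse _948, 0.119 without _952 and 0.0628 without _953, and it was 0.0595 with a pseudocount of 64 and 0.145 for the mean of its probe sets. Its other 2 probe sets differed by 0.00 ± 0.16 and 0.18 ± 0.18. The first of these had means of 14.92 in CD117neg and 15.43 in CD117pos. It was thus brighter in CD117neg than the probe set that stood for Abcb9, and dimmer in CD117pos. The choice by the highest mean over all arrays therefore rested on the CD117pos values, and the rise of Abcb9 depends on that choice.

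The P-glycoprotein genes Abcb1a and Abcb1b, drug efflux pumps that lie side by side with Abcb4 on chromosome 5, did not pass. Abcb1a was 45.6, 48.1, 46.3 and 40.1 in CD117neg and 53.1, 112, 50.8 and 53.7 in CD117pos. All CD117pos values were above all CD117neg values, by little except in mouse _951, and the difference was 0.39 ± 0.18 (limma adjusted p = 0.193). A second Abcb1a probe set, at means of 8.11 ± 5.21 and 2.38 ± 0.754, had a difference of -0.37 ± 0.15 that did not pass, so the probe sets had opposite signs. Abcb1b differed by -0.13 ± 0.15 and Abcb4, which moves phosphatidylcholine into bile, by -0.14 ± 0.12. Abcb11, the bile salt pump, was below the array median on all 8 arrays and differed by 0.16 ± 0.17.

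Abcb6, a porphyrin transporter, and Abcb8, a mitochondrial transporter linked to iron export, were higher in CD117pos in mice _948, _952 and _953 but not in _951. Abcb6 was 117, 134, 127 and 127 in CD117neg and 266, 108, 214 and 308 in CD117pos, a difference of 0.67 ± 0.26 (limma adjusted p = 0.136). Abcb8 was 70.7, 72.8, 59.8 and 71.6 and then 126, 56.1, 99.6 and 132, a difference of 0.45 ± 0.21 (limma adjusted p = 0.201). In both genes the lowest CD117pos value was that of mouse _951 and lay below all CD117neg values.

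**Figure D2:**
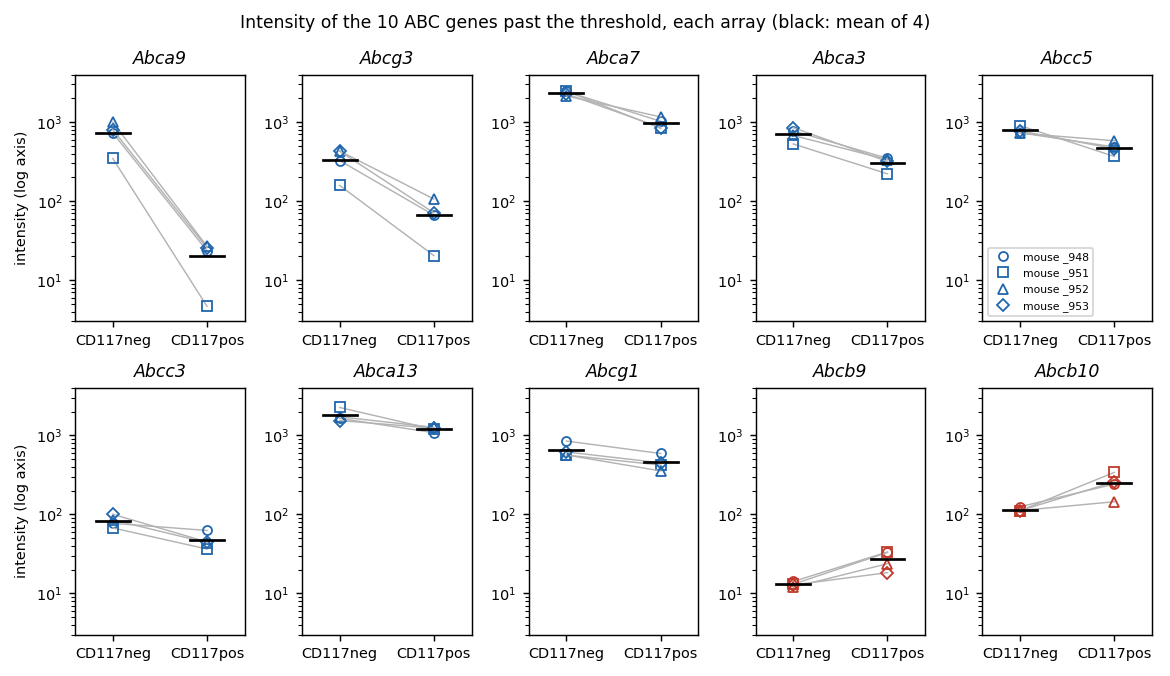
Intensity on a log axis in each CD117neg and CD117pos array for the 10 ABC genes with a limma adjusted p under 0.05; symbols are mice, grey lines join the arrays of 1 mouse, and black bars are means of 4 arrays. Every line runs down in the 8 blue genes and up in Abcb9 and Abcb10, and Abcg1 is the gene whose fractions overlap.

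In subfamily C, 2 of 10 genes were lower, Abcc5 and Abcc3, and 0 were higher, with a median difference of -0.02. Abcc5 exports cyclic nucleotides. Its intensity was 733, 902, 724 and 774 in CD117neg and 485, 368, 581 and 461 in CD117pos. The fractions did not overlap, and mouse _951 had both the highest and the lowest value. The means were 783 ± 82.3 and 474 ± 87.7, a difference of -0.72 ± 0.18 (limma adjusted p = 0.0388). The adjusted p for Abcc5 was 0.121 without mouse _948, 0.0658 without _952 and 0.138 without _953. It was 0.0831 after quantile normalisation, 0.0616 after median centring and 0.0770 with a pseudocount of 1. Of its 9 other probe sets 2 were lower past the threshold, by -0.76 ± 0.18 and -0.49 ± 0.12, and the other 7 differed by -0.96 to -0.06.

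Abcc3 exports glucuronides and other organic anions. Its values were 77.2, 67.5, 85.4 and 100.5 in CD117neg and 62.6, 36.5, 44.0 and 44.8 in CD117pos. The fractions did not overlap, although mouse _948 in CD117pos came close to mouse _951 in CD117neg. The means were 82.6 ± 14.0 and 47.0 ± 11.1, a difference of -0.65 ± 0.15 (limma adjusted p = 0.0300). The adjusted p for Abcc3 was 0.124 without mouse _952 and 0.122 without _953. It was 0.0526 with a pseudocount of 1, 0.0528 after quantile normalisation and 0.0515 with an intensity trend.

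Abcc1, a broad exporter of glutathione conjugates and drugs, was 548, 499, 418 and 553 in CD117neg and 589, 312, 601 and 524 in CD117pos. The fractions overlapped, and the lowest value was that of mouse _951 in CD117pos. The means of 505 ± 62.4 and 507 ± 134 differed by -0.03 ± 0.20 (limma adjusted p = 0.939). Abcc2 and Abcc4, further exporters of organic anions, differed by 0.06 ± 0.13 and 0.08 ± 0.14, and Abcc10 by -0.12 ± 0.15. Abcc6 and Abcc12 were below the array median on all 8 arrays. Abcc8, the sulphonylurea receptor of potassium channels, was 85.47, 50.46, 19.96 and 42.23 in CD117neg and 95.9, 8.88, 7.05 and 5.77 in CD117pos. CD117pos was the lower fraction in all mice but _948, and the difference of -0.83 ± 0.29 did not pass (limma adjusted p = 0.101). Without mouse _948 the difference of Abcc8 was -1.16 (adjusted p = 0.0498). Abcc9, the second such receptor, differed by -0.01 ± 0.38.

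In subfamily G, 2 of 6 genes were lower, Abcg3 and Abcg1, and 0 were higher, with a median difference of 0.10. Abcg3 is a rodent relative of Abcg2. Its intensity was 326, 158, 431 and 430 in CD117neg, where mouse _951 was lowest, and 66.5, 20.5, 106 and 71.1 in CD117pos, where it was again lowest. The fractions did not overlap, and the differences of the 4 mice lay between -2.35 and -1.87. The means were 336 ± 129 and 66.1 ± 35.3, a difference of -2.13 ± 0.13, 4.39-fold lower (limma adjusted p = 0.000753). A second probe set of Abcg3 was also lower, by -0.58 ± 0.13, with means of 148 ± 27.5 and 94.0 ± 19.6. It was dimmer in CD117neg than the probe set that stood for Abcg3, and brighter in CD117pos. The choice by the highest mean over all arrays therefore rested on the CD117neg values, and the size of the fall depends on that choice.

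Abcg1 exports cholesterol to high-density lipoprotein. It read 849, 564, 565 and 617 in CD117neg and 591, 421, 355 and 450 in CD117pos. The ranges overlapped because mouse _948 was highest in both fractions, while CD117pos was the lower fraction in all 4 mice. The means were 649 ± 136 and 454 ± 99.2, a difference of -0.50 ± 0.11 (limma adjusted p = 0.0271). Without the block the adjusted p for Abcg1 was 0.0967, and it was 0.118 after quantile normalisation, 0.0568 after median centring and 0.0685 with a pseudocount of 1. It was 0.117 without mouse _948, 0.122 without _952, 0.0953 without _953, and 0.124 in the fit with no block that leaves out the CD117pos array of _951. The second Abcg1 probe set was lower by -0.73 ± 0.13.

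Abcg2, the drug and dye efflux pump, was 34.9, 20.8, 30.7 and 70.0 in CD117neg and 65.2, 161, 43.1 and 48.1 in CD117pos. The fractions overlapped, and mouse _953 had the opposite sign to the other 3. The difference of 0.72 ± 0.42 did not pass (limma adjusted p = 0.303) and was 0.37 without the CD117pos array of mouse _951. Abcg4, a sterol transporter, was 141 to 164 in CD117neg and 114, 824, 134 and 114 in CD117pos. The adjacent sterol transporter genes Abcg5 and Abcg8, on chromosome 17, differed by 0.38 ± 0.14 and -0.14 ± 0.11, and Abcg5 was below the array median on all 8 arrays.

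Of the 7 genes of subfamilies D, E and F, 0 passed limma's test over 4 mice, beside 22.1% of all genes in either direction. Abcd3 alone of the 7 had an unadjusted limma p under 0.05, a count that was not taken over all genes. Abcd3 is a major peroxisomal membrane protein. It was 746, 559, 931 and 592 in CD117neg and 934, 665, 1409 and 1031 in CD117pos. CD117pos was higher within each mouse, while the ranges of the fractions overlapped. The difference was 0.48 ± 0.14 (limma adjusted p = 0.0581), and it passed in 7 of 14 alternative settings, among them both other scalings, the fit without mouse _951 (0.56) and the fit with no block that leaves out its CD117pos array (0.66). Abcd2, a relative that carries very long-chain fatty acids, differed by -0.11 ± 0.14. Another probe set of Abcd2 differed by -0.83 ± 0.23 (adjusted p over probe sets 0.0598). It was brighter than the representative in CD117neg, 389 ± 82.1 beside 355 ± 106, and dimmer in CD117pos, 219 ± 81.3 beside 319 ± 42.0. The remaining Abcd2 probe sets differed by 0.19 ± 0.16 and 0.06 ± 0.15. Abcd4, which exports vitamin B12 from lysosomes, differed by -0.42 ± 0.23.

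Abce1 recycles ribosomes after translation ends, and the Abcf proteins are relatives of the yeast translation regulator Gcn20. All 4 of these genes were higher in CD117pos in mice _948, _952 and _953 and lower in mouse _951. Abce1 was 1077, 1562, 1293 and 1445 in CD117neg and 1599, 1289, 1749 and 1627 in CD117pos, a difference of 0.22 ± 0.17 (limma adjusted p = 0.421). A dimmer Abce1 probe set, with means of 39.6 ± 8.41 and 63.8 ± 15.1, was higher by 0.52 ± 0.11 (adjusted p over probe sets 0.0289). Abcf2 was 151, 187, 170 and 120 in CD117neg and 265, 78.0, 331 and 324 in CD117pos. Its 3 high CD117pos values lay above all CD117neg values and that of mouse _951 below them, so the difference of 0.47 ± 0.40 did not pass. Abcf1 and Abcf3 differed by 0.23 ± 0.19 and 0.00 ± 0.22. The median of the Abcf genes was 0.69, 0.31 and 0.32 in mice _948, _952 and _953 and -0.79 in _951.

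Several of these results turned on mouse _951. Of 14 ABC genes that were higher in CD117pos in each of the other 3 mice, 8 were lower in mouse _951: Abcb6, Abcb8, Abcc4, Abcc6, Abce1, Abcf1, Abcf2 and Abcf3. Of 14 that were lower in each of the other 3, 4 were higher in it: Abca6, Abcc9, Abcd2 and Abcg4. Of all 45, 6 were higher and 10 lower in all 4 mice. The difference in mouse _951 was at least 1 log2 unit from the mean of the others for 9 genes. It was above them for Abca5 (3.22 beside -0.04), Abcg4 (2.22 beside -0.28), Abcg2 (2.27 beside 0.20) and Abcc9 (1.47 beside -0.51). It was below them for Abcf2 (-1.11 beside 0.99), Abcb6 (-0.28 beside 0.98), Abca8a (-1.25 beside -0.10), Abcf3 (-0.79 beside 0.27) and Abcd4 (-1.21 beside -0.16). A single mouse allows no test of these differences. The counts in this paragraph were not taken over all genes, and the CD117pos array of mouse _951 stood apart over all probe sets (correlations of 0.928 to 0.930). They are therefore not shown to be particular to ABC genes.

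**Figure D3:**
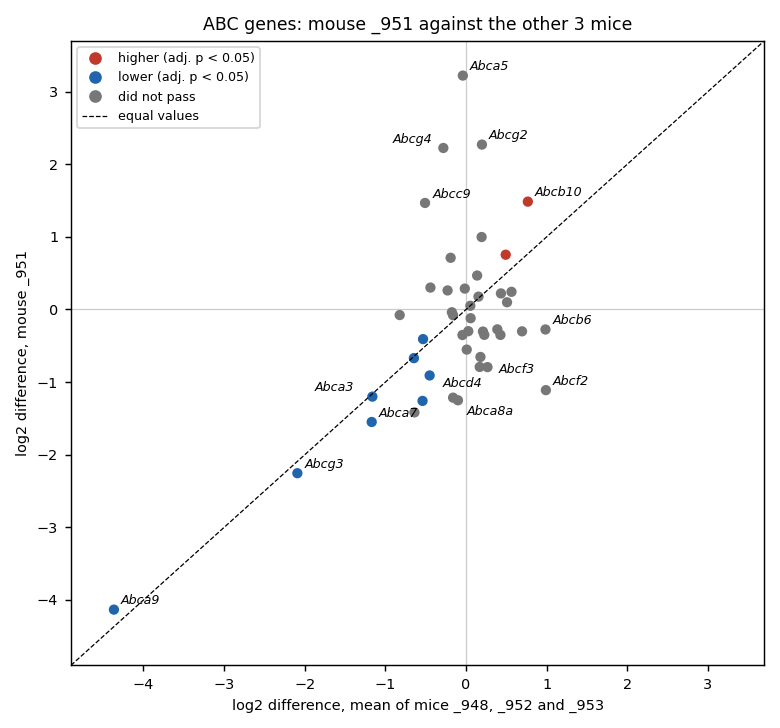
Difference between fractions in mouse _951 (vertical axis) against the mean of mice _948, _952 and _953 (horizontal axis), in log2 units, 1 point per ABC gene, with equal values on the dashed line. Abca9, Abcg3, Abca7 and Abca3 lie close to the line, Abca5, Abcg4, Abcg2 and Abcc9 far above it, and Abcf2 and Abcb6 far below it.

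Among 48 measured markers of other cell types, Cd8a and Pdgfrb were at least 3 times higher in the CD117pos array of mouse _951 than in any other array. Cd8a, of cytotoxic T cells, was 537 there and at most 113 elsewhere, and Pdgfrb, of pericytes and fibroblasts, was 551 and at most 66.9. The T-cell marker sum was 597 in that array, 124 to 183 in the other CD117pos arrays and 164 to 204 in CD117neg, while Cd3e, which all T cells express, was 4.96. The sum of 8 stromal and endothelial markers was 832, beside 182 to 211 and 276 to 320. Most of that sum came from Pdgfrb and from Col1a2, which read 164.6 there. Col1a1, Col3a1, Cdh5, Kdr and Dcn lay within the range of the other arrays, and Pecam1 was lower there than on any other array. The sum therefore does not show a rise of the list as a whole. Of 5 mast cell and basophil markers, Mcpt8 alone read 527 there, beside 156 to 219 in the other CD117pos arrays, and the other 4 were at most 14.4. The same array had the lowest CD117pos sums of general myeloid markers (11850 beside 17520 to 18630), of monocyte and macrophage markers and of late neutrophil markers. The part of these cell types in the values of mouse _951 was not tested.

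In a fit with no block that left out mouse _951's CD117pos array, 8 ABC genes were higher and 7 lower, beside 11.9% and 16.3% of all genes. Of the 10 genes above, 9 passed in both fits, all but Abcg1. This fit differs from the main one in the block as well as in the array. With the block kept and both arrays of mouse _951 left out, Abcg1 passed and Abcf1 did not. The 6 further genes were Abcb6, higher by 0.96, Abcf2 by 0.91, Abcb8 by 0.67, Abcd3 by 0.66, Abca2 by 0.51 and Abcf1 by 0.41. Their limma adjusted p was 0.00113, 0.00325, 0.00481, 0.0445, 0.0180 and 0.0453 in the same order. Subfamily B then had 4 of 8 genes higher and F 2 of 3. Abca9 and Abcg3 were lower by 4.06 and 1.78 on the log2 scale in that fit.

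For the 26 ABC genes with several probe sets, the probe sets of a gene were compared. Over all 45037 probe sets tested, 16.5% passed in either direction. Of the 47 ABC probe sets that did not represent their gene, 7 passed, 1 higher and 6 lower. In 0 genes did probe sets pass in opposite directions, and 11 genes had a probe set of any kind that passed. Neither of these counts was taken over all genes. The 7 were those of Abca3 (2), Abcc5 (2), Abcg1, Abcg3 and Abce1, of which Abce1 had not passed by its representative.

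**Figure D4:**
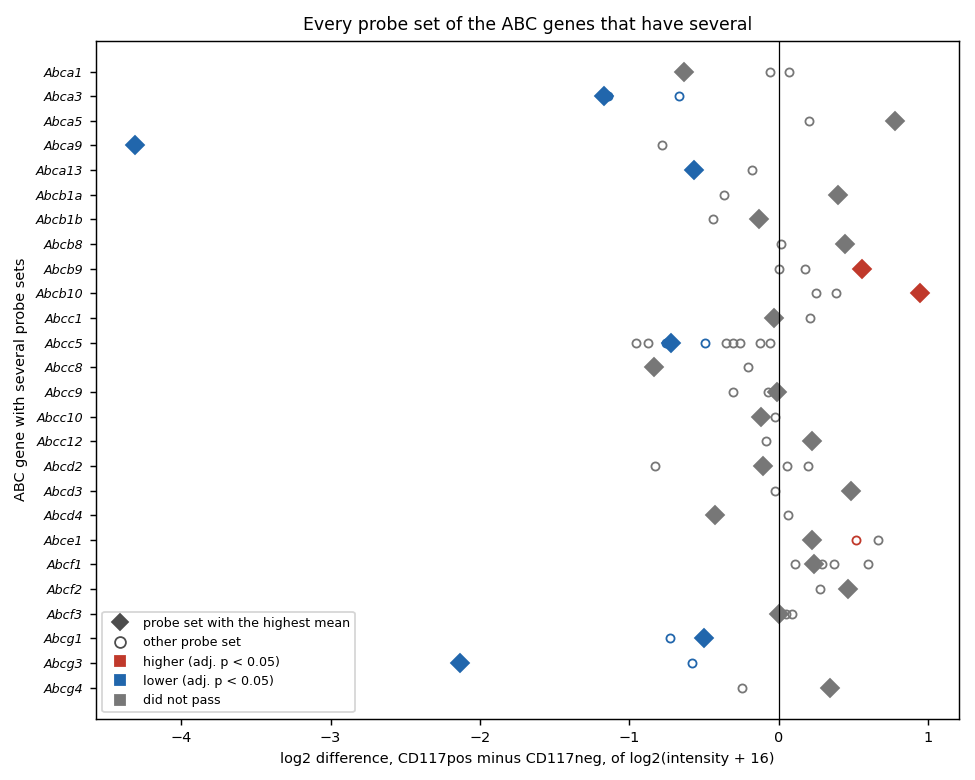
Log2 difference between fractions (horizontal axis) for every probe set of the 26 ABC genes with several; diamonds are the probe sets with the highest mean, circles the others, and colours mark an adjusted p under 0.05 over all probe sets. Coloured circles lie on the same side as the coloured diamonds in Abca3, Abcc5, Abcg1 and Abcg3, while the circles of Abca9, Abca13, Abcb9 and Abcb10 are grey and nearer to 0 than their diamonds.

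The ABC genes outside the naming rule, Tap1, Tap2 and Cftr, did not pass over 4 mice. Cftr, a chloride channel built like a C transporter, was 48.1, 39.0, 47.4 and 62.2 in CD117neg and 366, 35.9, 179 and 615 in CD117pos. It was high in CD117pos of all mice but _951, and the difference was 1.78 ± 0.51 (limma adjusted p = 0.0587). Leaving out that mouse's CD117pos array and the block gave 2.48 (adjusted p = 0.000984). The peptide transporter genes Tap1 and Tap2 differed by -0.41 ± 0.16 and 0.34 ± 0.25, and in that same fit Tap1 was lower by 0.67 on the log2 scale (adjusted p = 0.0427).

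Genes that work with the transporters were counted in 6 lists, to be read beside 8.27% higher, 13.8% lower and a median of -0.01 over all genes. The shares of all genes higher and lower were 2.31% and 6.63% without mouse _948, 11.6% and 16.4% without _951, 3.21% and 7.6% without _952, and 2.29% and 6.49% without _953. They were 13.3% and 10.7% after quantile normalisation and 10.7% and 11.5% after median centring. Of 16 measured genes of cholesterol handling around Abca1 and Abcg1, 7 were lower and 0 higher, with a median of -0.60. Among them Cyp27a1, which makes 27-hydroxycholesterol, fell from 415 ± 113 to 78.4 ± 8.84 (-2.15 ± 0.17). Lipa, the lysosomal lipase, fell by 1.98 ± 0.22 and Rxra, a nuclear receptor partner, by 1.45 ± 0.30 on the log2 scale. The other 4 were Apoa1, Mylip, Npc1 and Npc2. The liver X receptor gene Nr1h3 differed by -0.23 ± 0.13 and Apoe by -0.55 ± 0.21, and neither passed. With a mouse left out, 4 (without _948) to 9 (without _951) of the 16 were lower.

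Of 13 peroxisomal genes around the Abcd transporters, 3 were lower and 0 higher, with a median of -0.06. They were Acaa1a and Acox3, enzymes of peroxisomal fatty acid oxidation, at -1.27 ± 0.23 and -0.66 ± 0.13, and Crat, carnitine acetyltransferase, at -0.92 ± 0.13. Acox3 was dim, with means of 31.05 in CD117neg and 14.23 in CD117pos, beside array medians of 27.5 to 32.8. Without mouse _948 1 of these 13 genes was lower, and without _953 0 were. Of 15 genes of haem and iron-sulphur cluster synthesis around Abcb10, Abcb6 and Abcb8, 1 was higher and 1 lower, with a median of 0.22. Fech, which inserts iron into haem, rose from 668 ± 53.0 to 1086 ± 251 (0.66 ± 0.14), and Slc25a38, the mitochondrial glycine carrier, fell by 0.65 ± 0.13 on the log2 scale. Leaving out mouse _948, _952 or _953, both counts were 0, and without _951 they were 4 and 2. After quantile normalisation 6 were higher and after median centring 3, with 1 lower in each.

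Of 16 genes of glutathione supply and conjugation, which feed the C transporters, 2 were higher and 2 lower, with a median of 0.07. Mgst2 and Gstm1, glutathione transferases, rose by 0.74 ± 0.15 and 0.71 ± 0.12, while Mgst1, another transferase, fell by 1.09 ± 0.16 and Nfe2l2, the gene of the regulator NRF2, by 0.93 ± 0.12. The count of rises was 0 without mouse _952 or _953 and 1 without _948, and that of falls was 1 without _948. After quantile normalisation 4 of these 16 were higher and 2 lower. Of 11 genes of peptide loading around Tap1, Tap2 and Abcb9, 1 was higher, Erap1 at 0.51 ± 0.11, and 2 lower, Tapbp at -0.72 ± 0.13 and Psme1 at -0.40 ± 0.11. The median of these 11 was -0.24. Without mouse _948 or _952 none of these 11 passed in limma's test, and without _951 1 was higher and 5 lower. Quantile normalisation gave 3 higher and 1 lower of the 11, and median centring 2 and 1. Of 13 genes of translation termination and stress around Abce1 and the Abcf genes, 2 were lower, Ppp1r15a and Pelo, both at -0.52, with SEs of 0.12 and 0.13. The median of these 13 was 0.03. Leaving out mouse _948, _952 or _953, 0 of these 13 were higher and 0 lower, and without _951 1 was higher and 1 lower. Another scaling turned the direction of this list, to 2 higher and 0 lower after quantile normalisation and 1 higher and 0 lower after median centring.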

How the data were processed

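Per the labels, RNA of 8 sorted spleen fractions was amplified in a pair of cycles, labelled with biotin and hybridised to 1-colour Affymetrix arrays. The authors deposited a linear intensity for each of 45101 probe sets. The sources used here do not name the software or its scaling, and detection calls were not analysed here. On each array 841 to 898 values equalled 1, which looks like a floor. Arrays have no read depth, and their number limits the precision.

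The 64 control probe sets were left out, and 34945 had a single symbol in the platform annotation. The 45 ABC genes were matched by gene identifier to the mouse gene table of GRCm38.p6, which changed 0 symbols. Neighbouring genes were read from that table's order. Deposited intensities were used as log2(intensity + 16) in limma 3.58.1 (R 4.3.3; lmFit and eBayes, two-sided), with the mouse as a block and Benjamini-Hochberg adjustment over 18193 genes. Probe sets were fitted and adjusted in the same way over 45037. The procedure was run on simulated data with independent normal noise whose SD was capped. That setting has no outlying array and less noise than the most variable genes, so it does not cover those cases. Plots were made in Python 3.11.15 (matplotlib 3.10.9).

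The design text says that the spleen of each mouse was separated into both fractions, hence the block. To check the pairing, deviations from the fraction means were correlated across genes and gave 0.21 within mouse _948, 0.22 within _951, 0.27 within _952 and 0.12 within _953. Between different mice the highest values were 0.04, -0.01, 0.11 and 0.11, in that order of mice. These are correlations over genes, which are no independent replicates.

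The ABC genes, the lists of partner genes and markers, and the motifs were chosen with earlier results of these data known. Every ABC gene past the threshold was named with its value in every array. Others were named as members of a subfamily with such genes, as well-known drug or lipid transporters, or for their values in mouse _951, the last chosen after those values were seen. Of each partner list, up to 3 genes past the threshold with the largest differences were to be named. Beyond these, 1 more glutathione gene, the remaining cholesterol genes past the threshold, and Nr1h3 and Apoe were named after their values were seen. Alternatives were other pseudocounts (1 and 64), 2 other scalings, a fit with no block, a minimum mean intensity of 64, the mean of probe sets, probe sets without shared-sequence suffixes, an intensity trend, each mouse left out, and the CD117pos array of mouse _951 left out.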

Additional observations from a re-analysis of the deposited data

Results flagged for a closer look

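Each fraction's 4 arrays were searched for 1 array far from the other 3, by Dixon's test on log2(intensity + 16), for every ABC gene. Of 90 such groups, 11 had an array past the 95% critical value, where chance gives about 1 in 20, and 7 of the 11 were in CD117pos of mouse _951. In that array Abca5 was 456.7, beside 37.4 to 44.7 in the other CD117pos arrays, Abcg4 was 823.9 beside 114 to 134, and Abcb1a was 112 beside 50.8 to 53.7. The low values there were Abca9 at 4.67 beside 23.6 to 26.7, Abcf1 at 788.2 beside 1227 to 1343, Abcf2 at 77.97 beside 265 to 331, and Abcf3 at 249.5 beside 540 to 595. In CD117pos of mouse _948, Abcc8 was 95.92 beside 5.77 to 8.88, and Abca4 was 13.45 beside 1 to 1.30. In CD117neg, Abcb10 was 125.1 in mouse _948 beside 111.5 to 112.1, and Abcb8 was 59.79 in mouse _952 beside 70.7 to 72.8. The counts of flagged groups were not taken over all genes, and the CD117pos array of mouse _951 stood apart over all probe sets. They are therefore not shown to be particular to ABC genes. No cause of these values was tested.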

How the results depend on the processing

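Abca9, Abcg3, Abca7 and Abca3 stayed past the threshold under all 14 alternatives, with differences from -5.23 to -2.54 for Abca9 and -2.44 to -1.36 for Abcg3. The other calls were lost under some: Abcb10 under 3 of 14, Abcb9 under 5 of 13, Abcc3 under 5, Abcc5 under 6, Abca13 under 7 and Abcg1 under 8. Over 608 gene and setting pairs, 0 called differences changed sign, 34 lost the call and 17 gained one. ABC genes higher numbered 1 with a pseudocount of 1 (5.45% of all genes) and 1 with the mean of probe sets (8.16%), beside 2. ABC genes lower numbered 4 with a pseudocount of 1 (10.3% of all genes), 4 after quantile normalisation (10.7%) and 5 after median centring (11.5%), beside 8. With arrays left out, the count higher ranged from 0 (without mouse _948 or _953, where 2.31% and 2.29% of all genes were higher) to 8 (leaving out CD117pos of mouse _951, 11.9%), and the count lower from 4 (without _952 or _953, 7.6% and 6.49% of all genes) to 8 (without _951, 16.4%). Fewer mice also leave fewer degrees of freedom. With no replicate block, 2 were higher and 7 lower, and the block changed no ABC call other than that of Abcg1. The median ABC difference lay between -0.06 and 0.10, within the SD over mice of 0.160. For the remaining lost calls the cause was not tested. Genes below the array median, 10 of 45 on all 8 arrays, carry little information on differences.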

Other observations

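The median difference of the 45 ABC genes was 0.03, -0.28, 0.09 and -0.06 in mice _948, _951, _952 and _953. Of the 45, 24 were above the array median on all 8 arrays and 10 below it on all 8, of which 6 were in subfamily A, 1 in B, 2 in C and 1 in G. The integrin gene Itgax, the one dendritic marker of 6 that passed, fell by 3.36 ± 0.19 on the log2 scale. Mcpt8, a basophil protease gene, rose from 72.2 ± 38.9 to 278 ± 168 (1.69 ± 0.13, limma adjusted p = 0.00151), the one of 5 mast cell and basophil markers that passed. Klra8, an NK-cell receptor gene, rose by 0.57 ± 0.11 from 7.71 ± 5.93 to 19.3 ± 9.77, both below the array medians. Its limma adjusted p of 0.0176 was 0.219 without the block and CD117pos of mouse _951, and it did not pass without mouse _948, _952 or _953. Pecam1, listed here under stroma and endothelium, fell by 0.89 ± 0.16 on the log2 scale and did not pass without mouse _948, _952 or _953. Klra8 and Pecam1 were each the one gene of their list that passed. Cdh5 and Kdr, also in the list of Pecam1, differed by -0.03 ± 0.13 and -0.12 ± 0.17.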
